A study of Mus musculus with 8 samples.

Results

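The solute carrier (SLC) transporters were followed in cultured mouse hippocampal progenitors as the cells left the growth-factor-supported state. Members were the protein-coding genes of the deposited gene table whose symbol begins with Slc and a number, with the glutamate transporters Slc1a2 and Slc1a3 left out. This rule found 135 genes among 9140 in the matrix, of which 8752 were protein coding. The rule reads only the symbol, so it also takes Slc4a1ap and Slc7a6os, which are named after a transporter and are not transporters themselves. Cells came from microdissected hippocampal tissue of littermate embryos, from C57BL/6J females mated to Kmt2d+/βgeo males. The labels give their age as embryonic day 18, and the study's methods give an earlier day. The label of the wild-type libraries gives the strain C57BL/6J, and that of the Kmt2d+/βgeo libraries gives the allele Mll2Gt(RRt024)Byg, a gene-trap insertion in Kmt2d. All cells were grown with EGF and FGF2 until day 0, and libraries were then made 2, 4 and 8 days after both factors were withdrawn. There was 1 droplet library per genotype and day, 8 in all. A culture or an animal therefore cannot be told apart from a genotype or a day, no p-value was computed, and every interval below covers counting error only.

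Solute carriers are membrane proteins that move small molecules along or against their gradients, often by coupling them to sodium, protons or an exchanged solute. They supply cells with amino acids, glucose, lactate, metals and vitamins, set pH and chloride, clear neurotransmitters from the space around synapses, and shuttle metabolites across the mitochondrial and Golgi membranes. In the brain, glial and neuronal cells use different sets of them, and dividing cells depend on amino acid and glucose uptake.

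Some properties of the libraries bear on what follows. Each held 2534 to 4900 cells, and pairs of libraries shared 0 to 10 cell barcodes over 28 pairs. The Kmt2d+/βgeo day 8 library was the shallowest, with a median of 3972 unique molecular identifiers (UMIs, each marking 1 captured RNA molecule) per cell on the matrix genes, against 6989 for the next lowest library and 11230 for the highest. The libraries labelled Kmt2d+/βgeo and wild type on day 4 were almost the same, with a standard deviation over genes of the log2 ratio between them of 0.109, against 0.342, 0.381 and 0.492 on days 0, 2 and 8. Gm47283, a noncoding gene placed on the Y chromosome by the gene table and chosen after its values were seen, averaged 5.91, 3.27 and 4.85 normalised counts in Kmt2d+/βgeo and 1.72, 0.669 and 1.01 in wild type on days 0, 2 and 8, but 0.861 and 0.961 on day 4. The day 4 library labelled Kmt2d+/βgeo thus sat at the wild-type level of this gene, and both day 4 libraries are named below only by their labels. The other 4 Y-linked genes in the matrix, Kdm5d, Eif2s3y, Uty and Ddx3y, showed no such split, as none was higher in Kmt2d+/βgeo than in wild type on days 0 and 2 and only Uty was on day 8. Kmt2d itself, the gene that carries the altered allele, was lower in the library that carries it on day 2 and higher on days 0, 4 and 8. Its log2 ratio, Kmt2d+/βgeo over wild type, was 0.30 (95% interval 0.17 to 0.43), -0.21 (-0.36 to -0.06), 0.32 (0.18 to 0.46) and 0.27 (0.08 to 0.46) on days 0, 2, 4 and 8, so the transcript level did not check the genotype labels.

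Levels are mean normalised counts per cell, obtained by undoing the log2 scale of the deposited values, in which every cell sums to 8707.1. Each molecule gives 1 tag at its 3′ end, so no gene length enters the scale. A gene was compared where its mean reached 0.1 in either library, and is said to have risen or fallen where the absolute log2 ratio of the means was at least 1. Of the 135 members, 76 could be compared in every comparison, 41 in some and 18 in none because they stayed below 0.1 in all 8 libraries. Mean levels over the 8 libraries ran from 0.0206 to 13.97 with a median of 0.193, against 0.300 for all genes, and 10 members averaged at least 1. The highest were Slc25a4, Slc38a1, Slc4a4, Slc3a2 and Slc6a11.

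After growth factor withdrawal more solute carriers rose than fell. On day 8, 31 of 105 compared members had risen and 8 had fallen in wild type, where 16.3% of all compared genes had risen and 10.9% had fallen, 27.3% in all. In Kmt2d+/βgeo 38 of 109 had risen and 7 had fallen, against 19% and 13.9% of all genes, or 32.9% together. The median log2 ratio of the members was 0.42 in wild type and 0.59 in Kmt2d+/βgeo, beside 0.04 and 0.11 for all genes. These counts and medians depend on averaging before the log: as differences of mean log2 values per cell, 3 members in wild type and 2 in Kmt2d+/βgeo were past the fold, and the members' medians were 0.04 and 0.02, beside -0.01 and -0.05 for all genes. The summed level of the 135 members went from 51.6 on day 0 to 76.0, 78.1 and 79.3 on days 2, 4 and 8 in wild type, and from 48.1 to 66.7, 81.8 and 71.7 in Kmt2d+/βgeo. Both genotypes thus held their lowest sum on day 0. Abundant members weigh most in this sum, and Slc38a1, whose levels are given below, makes up a large part of its rise by day 8. The sum therefore does not stand for each member.

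Earlier days showed the same balance with smaller counts. On day 2, 20 of 102 members had risen and 5 had fallen in wild type (8.08% and 5.56% of all genes, 13.6% together), and 22 of 104 had risen and 5 had fallen in Kmt2d+/βgeo (10.7% and 6.74%, 17.4% together). On day 4, 22 of 104 had risen and 6 had fallen in wild type (11.9% and 6.6%, 18.5% together), and 32 of 105 had risen and 5 had fallen in the library labelled Kmt2d+/βgeo (14.8% and 6.61%, 21.4% together). The comparisons within a genotype share their day 0 library, so they are not independent of each other.

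Counting only changes seen in both genotypes, 18 of 101 members had risen and 2 had fallen on day 2 (6.52% and 4.44% of all genes), and 20 of 103 had risen and 4 had fallen on day 4 (10.2% and 4.67%). On day 8, 26 of 103 had risen and 5 had fallen in both (13.2% and 8.02%). The 2 day 4 libraries were almost the same, so the day 4 count cannot be read as agreement of 2 genotypes. Among 117 members that reached 0.1 in some library, the highest level fell on days 0, 2, 4 and 8 for 21, 31, 19 and 46 members in wild type and for 18, 23, 29 and 47 in Kmt2d+/βgeo. In wild type these were 17.9%, 26.5%, 16.2% and 39.3% of members, against 31.7%, 18.3%, 18.6% and 31.4% of all genes. In Kmt2d+/βgeo they were 15.4%, 19.7%, 24.8% and 40.2%, against 25.8%, 18.0%, 24.3% and 31.8% of all genes. With day 4 left out, days 0, 2 and 8 held the highest level of 22, 35 and 60 members in wild type and of 21, 34 and 62 in Kmt2d+/βgeo. Shares of all genes were not computed with day 4 left out. The peak day was the same in both genotypes for 84 of the 117 members (71.8%, against 67.7% of all genes). Day 4 is included in this count.

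**Figure D1:**
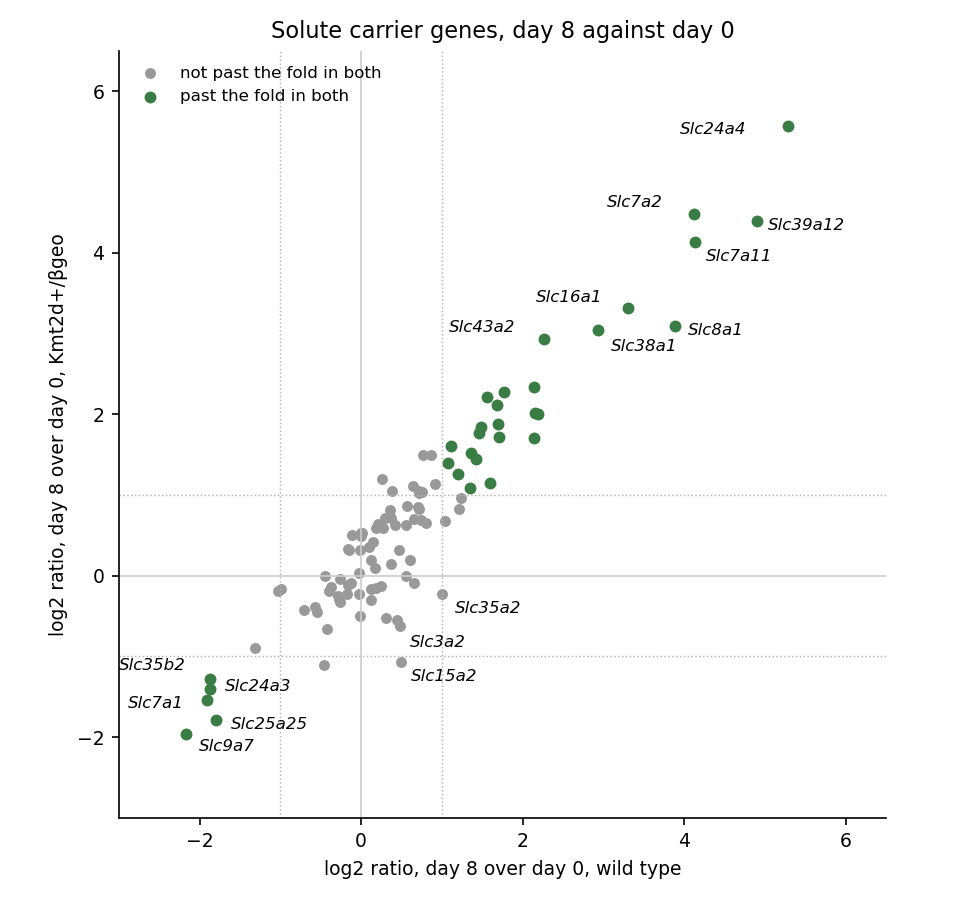
Each point is 1 solute carrier gene compared in both genotypes, with the log2 ratio of its mean normalised count on day 8 over day 0 in wild type on the horizontal axis and in Kmt2d+/βgeo on the vertical axis. Dotted lines mark the fold used for counting, and green points lie past it in both, 26 higher and 5 lower, with Slc24a4 farthest up at 5.29 and 5.57.

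Amino acid transporters held several of the steepest rises, and on day 2 the steepest fall of any member in both genotypes. In this family 4 members rose and 1 fell in both genotypes on day 8 (13.2% and 8.02% of all genes), of 14 compared in both, among which is Slc7a6os. Slc38a1 (ENSMUSG00000023169, GRCm38 chromosome 15, 96571418 to 96642913), a sodium-coupled carrier of glutamine and other neutral amino acids, averaged 1.66, 5.05, 8.73 and 12.7 normalised counts on days 0, 2, 4 and 8 in wild type and 1.26, 4.37, 9.61 and 10.4 in Kmt2d+/βgeo. Its level was higher on each later day than on the one before under both genotype labels. The day 8 over day 0 log2 ratio was 2.94 (2.90 to 2.97) in wild type and 3.04 (3.003 to 3.09) in Kmt2d+/βgeo. When every cell was thinned to 3000 UMIs, cells with at least 1 Slc38a1 UMI went from 39.7% (95% Clopper-Pearson interval 38.3 to 41.1) to 89.3% (88.2 to 90.3) between days 0 and 8 in wild type and from 33.4% (31.97 to 34.8) to 90.9% (89.6 to 92.0) in Kmt2d+/βgeo. Without thinning these shares were 75.2% and 94.5%, and 71.3% and 92.8%. No cell type that lacks these transporters was defined here, so no background share stands beside the shares of cells in this text.

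Slc7a11 (ENSMUSG00000027737, chromosome 3, 49892526 to 50443614) encodes the cystine and glutamate exchanger that feeds glutathione synthesis. It averaged 0.0485, 0.206, 0.627 and 0.854 in wild type and 0.0530, 0.144, 0.576 and 0.927 in Kmt2d+/βgeo on days 0, 2, 4 and 8. The lowest library was on day 0 and the highest on day 8 in both genotypes, with day 8 log2 ratios of 4.14 (3.96 to 4.32) and 4.13 (3.94 to 4.32). In thinned cells the share with a Slc7a11 UMI was 1.50%, 6.69%, 15.3% and 21.1% over the 4 days in wild type and 1.35%, 4.45%, 14.5% and 17.7% in Kmt2d+/βgeo. Without thinning it went from 8.63% on day 0 to 42.9% on day 8 in wild type and from 9.05% to 29.8% in Kmt2d+/βgeo, whose day 8 cells are the shallowest.

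Slc7a1 and Slc7a2, paralogs that both bring arginine and lysine into cells, went opposite ways. Slc7a2 (ENSMUSG00000031596, chromosome 8, 40862396 to 40922308) averaged 0.0279, 0.146, 0.241 and 0.487 in wild type and 0.0345, 0.220, 0.271 and 0.772 in Kmt2d+/βgeo, a day 8 log2 ratio of 4.13 (3.91 to 4.35) and 4.48 (4.27 to 4.71). Slc7a1 (ENSMUSG00000041313, chromosome 5, 148327410 to 148399904) averaged 0.242, 0.0207, 0.0554 and 0.0646 in wild type and 0.246, 0.0264, 0.0568 and 0.0850 in Kmt2d+/βgeo. Slc7a1 was thus highest on day 0 and lowest on day 2 in both, and its levels on days 4 and 8 lay between. Its log2 ratio to day 0 was -3.55 (-3.89 to -3.22) on day 2 and -1.90 (-2.14 to -1.68) on day 8 in wild type, and -3.22 (-3.49 to -2.96) and -1.54 (-1.83 to -1.26) in Kmt2d+/βgeo. Slc7a2 exceeded Slc7a1 in all 6 libraries made after withdrawal, while Slc7a1 exceeded Slc7a2 in both day 0 libraries.

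The 250 bases before the starts of Slc7a11 and Slc7a1 are shown because, of the amino acid transporters with an entry, these moved furthest up and down. Sequences are from RefSeq for GRCm38.p6, read 5′ to 3′ on the strand of the gene, which is the minus strand for both, and 103 of the 135 members had a promoter entry. Slc7a11 spans chr3:50443614-50443863, and its capitals mark TGATGCAA and its reverse complement, the C/EBP-ATF response element found in genes of amino acid shortage. Slc7a1 spans chr5:148399905-148400154, the window of 1 of its 2 starts, and its capitals mark the reverse complement of GGGCGG, the GC box.
Slc7a11: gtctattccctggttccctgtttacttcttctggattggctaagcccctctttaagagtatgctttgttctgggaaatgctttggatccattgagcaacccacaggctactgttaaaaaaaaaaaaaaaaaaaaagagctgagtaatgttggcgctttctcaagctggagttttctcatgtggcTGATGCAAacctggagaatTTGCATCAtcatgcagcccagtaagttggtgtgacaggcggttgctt
Slc7a1: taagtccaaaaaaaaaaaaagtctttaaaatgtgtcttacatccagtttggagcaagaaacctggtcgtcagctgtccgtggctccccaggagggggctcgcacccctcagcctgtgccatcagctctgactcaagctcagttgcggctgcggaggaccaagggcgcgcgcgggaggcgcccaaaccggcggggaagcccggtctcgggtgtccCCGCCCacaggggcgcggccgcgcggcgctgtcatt
The Slc7a11 window holds the response element at 66 and again at 47 bases before the start, on opposite strands. Searched on both strands, it was present in 260 of 32851 promoter windows (0.791%), and among the 132 windows of members only in that of Slc7a11. The GC box lies 36 bases before the Slc7a1 start and was present in 32.7% of all windows and 62.9% of member windows. All windows, here and below, were not limited to protein-coding genes or to genes of the matrix, as members are. The shares of all windows and of member windows thus come from unlike sets. Such matches describe the letters of these windows and not the binding of a factor.

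The integrated stress response list, whose genes include known users of the C/EBP-ATF element, had 7 of 14 genes in the matrix. On day 8, 2 of the 7 had risen and 1 had fallen in wild type, and 2 had risen and 2 had fallen in Kmt2d+/βgeo, beside 16.3% and 10.9% of all genes in wild type and 19% and 13.9% in Kmt2d+/βgeo. Asns, which makes asparagine, averaged 0.829, 0.409, 0.417 and 0.395 over the 4 days in wild type and 0.879, 0.540, 0.448 and 0.161 in Kmt2d+/βgeo. Ddit3, a stress-induced transcription factor, averaged 0.143, 0.324, 0.284 and 0.302 in wild type and 0.152, 0.389, 0.286 and 0.316 in Kmt2d+/βgeo. Asns was thus highest on day 0 and Ddit3 lowest on day 0, in both genotypes.

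Slc43a2 (chromosome 11, 75531694 to 75577575), a facilitative carrier of large neutral amino acids, averaged 0.148, 0.186, 0.741 and 0.714 in wild type and 0.0967, 0.201, 0.761 and 0.739 in Kmt2d+/βgeo, so its 4 libraries of days 4 and 8 stood together above the rest. Slc3a2, the heavy chain that Slc7a5 and Slc7a11 need to reach the cell surface, averaged 2.57, 3.63, 4.70 and 3.59 in wild type and 2.85, 3.69, 5.08 and 1.85 in Kmt2d+/βgeo. No comparison to day 0 took Slc3a2 past the fold, and its lowest library was Kmt2d+/βgeo day 8. Slc7a5, the light chain for large neutral amino acids, averaged 0.429, 0.286, 0.410 and 0.215 in wild type and 0.474, 0.166, 0.462 and 0.421 in Kmt2d+/βgeo, with its lowest level on day 8 in wild type and on day 2 in Kmt2d+/βgeo. Among the glutamine carriers, Slc38a2 had a day 8 log2 ratio of 1.21 in wild type and 0.83 in Kmt2d+/βgeo, and Slc38a3 of 0.25 and 1.20. The serine and alanine carrier Slc1a4 stayed between 0.104 and 0.208 in all 8 libraries.

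**Figure D2:**
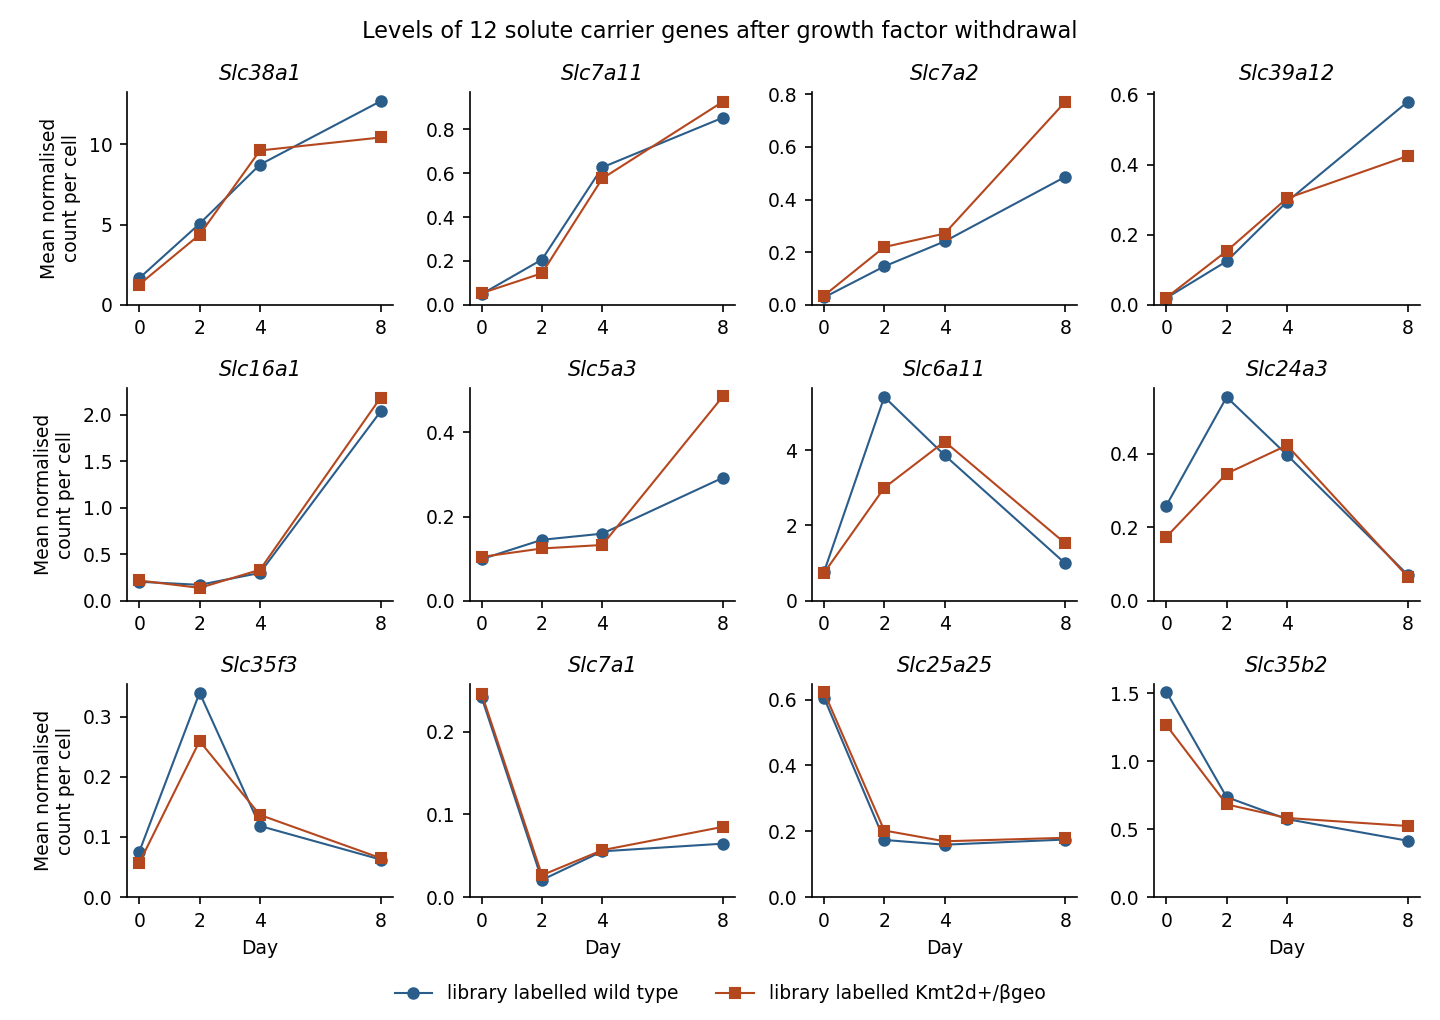
Mean normalised count per cell (vertical axes, linear and starting at 0, 1 scale per gene) on days 0, 2, 4 and 8 for 12 solute carrier genes, with blue circles for wild type and brown squares for Kmt2d+/βgeo, 1 library per point and no replicate error. Slc38a1, Slc7a11, Slc7a2 and Slc39a12 climb through day 8, Slc16a1 climbs after day 4, Slc6a11, Slc24a3 and Slc35f3 are highest on day 2 or 4, and Slc7a1, Slc25a25 and Slc35b2 are highest on day 0.

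Carriers of lactate, phosphate, choline and heme gave 6 rises and 0 falls in both genotypes on day 8 (13.2% and 8.02% of all genes), of 10 compared members. Slc16a1 (ENSMUSG00000032902, chromosome 3, 104638668 to 104658462), the proton-coupled carrier of lactate, pyruvate and ketone bodies, averaged 0.206, 0.172, 0.300 and 2.03 in wild type and 0.219, 0.140, 0.334 and 2.18 in Kmt2d+/βgeo. Both day 8 libraries stood far above the other 6, which did not exceed 0.334. The day 8 log2 ratio was 3.31 in both genotypes (3.22 to 3.39 and 3.22 to 3.41), whereas the day 2 and day 4 ratios did not pass the fold in either. In thinned cells the share with a Slc16a1 UMI was 9.74% (8.78 to 10.8) on day 4 and 47.96% (46.2 to 49.7) on day 8 in wild type, and 11.1% (9.93 to 12.4) and 48.3% (46.1 to 50.4) in Kmt2d+/βgeo. Without thinning these were 24.4% and 73.3%, and 28.97% and 53.4%.

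The other 5 members of this family that rose reached lower day 8 ratios than Slc16a1. Slc16a9 averaged 0.0689, 0.0884, 0.173 and 0.305 in wild type and 0.0463, 0.0935, 0.198 and 0.234 in Kmt2d+/βgeo. Slc48a1, a heme transporter, averaged 0.762, 1.60, 2.10 and 1.75 in wild type and 0.743, 1.61, 1.98 and 1.78 in Kmt2d+/βgeo, and was past the fold on every day after withdrawal in both. The choline transporter-like gene Slc44a2 had day 8 log2 ratios of 1.68 and 2.12, the phosphate carrier Slc20a2 of 1.60 and 1.14, and Slc16a6 of 1.43 and 1.45, with wild type first. Slc20a1, which carries the same solute as Slc20a2, had ratios of 0.00 and 0.49.

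Carriers of sugars and of other sodium-coupled solutes were few, with 2 members compared in both genotypes on day 8, and both rose, where 13.2% of all genes did. Slc2a1, the glucose transporter GLUT1, averaged 0.160, 0.0908, 0.167 and 0.347 in wild type and 0.0793, 0.0507, 0.196 and 0.240 in Kmt2d+/βgeo, lowest on day 2 and highest on day 8 in both. Its day 8 log2 ratio was 1.11 (0.98 to 1.25) in wild type and 1.60 (1.39 to 1.81) in Kmt2d+/βgeo. Slc5a3 (chromosome 16, 92058322 to 92087473), the sodium-coupled carrier of the osmolyte myo-inositol, averaged 0.0991, 0.145, 0.159 and 0.292 in wild type and 0.104, 0.124, 0.133 and 0.485 in Kmt2d+/βgeo, with log2 ratios of 1.56 (1.40 to 1.72) and 2.22 (2.05 to 2.39). The glucose transporter Slc2a3 passed the minimum level only in the Kmt2d+/βgeo day 8 library, at 0.102.

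Metal transporters gave 5 rises and 0 falls in both genotypes on day 8 (13.2% and 8.02% of all genes), of 17 compared in both. Slc39a12 (ENSMUSG00000036949, chromosome 2, 14388316 to 14494977), a zinc importer of the ZIP family, averaged 0.0193, 0.124, 0.294 and 0.579 in wild type and 0.0203, 0.153, 0.304 and 0.425 in Kmt2d+/βgeo. Its level climbed through all 4 days under both genotype labels, by a day 8 log2 ratio of 4.91 (4.63 to 5.20) and 4.39 (4.10 to 4.69). In thinned cells the share with a Slc39a12 UMI went from 0.803% on day 0 to 17.2% on day 8 in wild type and from 0.674% to 13.9% in Kmt2d+/βgeo, and without thinning from 2.20% to 35.4% and from 2.54% to 17.4%. The zinc and manganese importer Slc39a14 averaged 0.0616, 0.0691, 0.140 and 0.282 in wild type and 0.0689, 0.0548, 0.139 and 0.275 in Kmt2d+/βgeo. The magnesium transporter Slc41a1 averaged 0.396, 0.796, 1.34 and 1.76 in wild type and 0.369, 0.812, 1.50 and 1.49 in Kmt2d+/βgeo. Its relative Slc41a3 had day 8 log2 ratios of 1.35 and 1.08, and Slc31a2, of the copper transporter family, of 1.46 and 1.76. The zinc exporter Slc30a7 was among the flattest of the whole set, at -0.03 and 0.03.

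The Slc39a12 window, shown because this gene had the largest rise among members with a promoter entry that could be compared on every day, spans chr2:14388148-14388397 on the plus strand, with TATAAA in capitals.
Slc39a12: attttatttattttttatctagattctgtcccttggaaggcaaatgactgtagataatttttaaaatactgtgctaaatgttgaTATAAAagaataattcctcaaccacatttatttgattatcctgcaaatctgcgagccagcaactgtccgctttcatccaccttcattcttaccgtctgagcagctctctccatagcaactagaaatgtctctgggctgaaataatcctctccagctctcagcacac
The letters TATAAA lie 166 bases before the RefSeq start, occur in 12.4% of all windows and in 5.30% of member windows, and were searched on both strands. This start lies inside the span that the gene table gives for Slc39a12, so the end of the window falls within the gene as that table places it. The window is 37.6% G and C, against 43.2% for Slc7a11 and 62.4% for Slc7a1.

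Carriers of sodium, calcium, protons, potassium and chloride gave 2 rises and 2 falls in both genotypes on day 8 of 11 compared (13.2% and 8.02% of all genes). The potassium-dependent sodium and calcium exchangers went opposite ways. Slc24a4 (ENSMUSG00000041771, chromosome 12, 102128733 to 102267091) averaged 0.00415, 0.0378, 0.0709 and 0.163 in wild type and 0.00401, 0.0371, 0.0908 and 0.191 in Kmt2d+/βgeo. Its day 8 log2 ratios of 5.29 (4.69 to 5.97) and 5.57 (4.96 to 6.24) were the highest of the members in each genotype, and rest on 23 and 24 UMIs in the day 0 libraries. Slc24a3 (chromosome 2, 145167754 to 145642166) averaged 0.259, 0.555, 0.397 and 0.0711 in wild type and 0.174, 0.347, 0.423 and 0.0659 in Kmt2d+/βgeo. It was highest on day 2 or 4 and lowest on day 8, with day 8 log2 ratios of -1.87 (-2.09 to -1.64) and -1.40 (-1.71 to -1.10). After withdrawal Slc24a4 passed Slc24a3 only in the day 8 libraries.

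Among the other cation carriers, the endomembrane sodium and proton exchanger Slc9a7 averaged 0.144, 0.0693, 0.0329 and 0.0321 in wild type and 0.105, 0.109, 0.0295 and 0.0271 in Kmt2d+/βgeo. Its fall past the fold came by day 2 in wild type, at a log2 ratio of -1.06, whereas on day 2 in Kmt2d+/βgeo the ratio was 0.05. The chloride importer Slc12a2 averaged 1.05, 0.447, 0.422 and 0.517 in wild type and 0.672, 0.344, 0.436 and 0.588 in Kmt2d+/βgeo, and was highest on day 0 in both. Its day 8 log2 ratio was -1.03 (-1.11 to -0.94) in wild type and -0.19 (-0.30 to -0.08) in Kmt2d+/βgeo. The potassium and chloride exporter Slc12a4 had ratios of -0.17 and -0.23.

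Of the bicarbonate and anion family, 2 of 5 compared members rose in both genotypes on day 8, where 13.2% of all genes did, and the 5 include Slc4a1ap. Slc4a4 (ENSMUSG00000060961, chromosome 5, 88886486 to 89239653), the sodium-bicarbonate cotransporter of astrocytes, averaged 1.70, 7.50, 6.62 and 4.76 in wild type and 1.47, 5.03, 7.14 and 5.26 in Kmt2d+/βgeo. Both day 0 libraries were the lowest. The highest was the day 2 library in wild type and, in Kmt2d+/βgeo, the day 4 library labelled so. With day 4 left out, the highest was on day 2 in wild type and on day 8 in Kmt2d+/βgeo. The log2 ratio of Slc4a4 to day 0 was 2.14 on day 2 and 1.48 on day 8 in wild type, and 1.77 and 1.84 in Kmt2d+/βgeo. The anion exchanger Slc4a3 averaged 0.262, 0.401, 0.602 and 0.672 in wild type and 0.236, 0.417, 0.620 and 0.675 in Kmt2d+/βgeo, close together in the 2 genotypes on every day.

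Neurotransmitter carriers were led by Slc6a11 (ENSMUSG00000030307, chromosome 6, 114131241 to 114249952), a GABA transporter found mainly on astrocytes, whose level was highest on day 2 or 4. It averaged 0.763, 5.41, 3.86 and 0.992 in wild type and 0.739, 3.0, 4.23 and 1.52 in Kmt2d+/βgeo. The 4 libraries of days 2 and 4 stood above all others. Day 8 lay near day 0 in wild type, whereas in Kmt2d+/βgeo it was still past the fold. The log2 ratio to day 0 was 2.83 (2.78 to 2.87) on day 2 and 0.38 (0.31 to 0.45) on day 8 in wild type, and 2.02 (1.97 to 2.07) and 1.05 (0.97 to 1.12) in Kmt2d+/βgeo. In thinned cells the share with a Slc6a11 UMI was 19.95%, 61.3%, 59.6% and 25.3% in wild type and 19.7%, 49.0%, 62.1% and 36.9% in Kmt2d+/βgeo. Without thinning it was 41.3%, 74.3%, 80.6% and 46.3%, and 45.4%, 67.5%, 82.1% and 42.6%. The glycine transporter Slc6a9 rose on day 4, to 0.169 from 0.0274 in wild type and to 0.172 from 0.0362 in the library labelled Kmt2d+/βgeo, and was below 0.1 in the other 6 libraries.

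The glutamate transporters left out of the rule give a reference for this time course. Slc1a2 averaged 0.721, 3.95, 3.53 and 1.53 in wild type and 0.498, 2.19, 3.75 and 2.08 in Kmt2d+/βgeo, also highest on day 2 or 4. Slc1a3 averaged 9.64, 23.3, 14.2 and 12.44 in wild type and 7.97, 14.05, 14.97 and 9.03 in Kmt2d+/βgeo. Its day 8 log2 ratios, wild type first, were 0.37 and 0.18, below the fold, against 1.09 and 2.06 for Slc1a2. The astrocyte marker list, which contains Slc1a2 and Slc1a3, had 8 of 12 genes in the matrix, all detected in every library. Its summed level was 28.9, 209, 282 and 275 in wild type and 30.5, 244, 302 and 124 in Kmt2d+/βgeo. The neuron list had 4 of 12 genes and summed to between 3.08 and 4.51, the neural progenitor list had 6 of 11 and summed to between 61.6 and 131, and of the oligodendrocyte lineage list only Olig2 was in the matrix. Olig2 averaged 8.09, 6.36, 2.18 and 0.911 in wild type and 5.53, 4.76, 2.31 and 1.48 in Kmt2d+/βgeo, lower on each later day than on the one before. None of the markers listed for microglia, endothelial and mural cells, meningeal fibroblasts, or choroid plexus and ependyma was in the matrix, so these cell types could not be assessed by them. Through days 0, 2 and 4 the astrocyte sum rose together with Slc7a2, Slc7a11 and Slc39a12 under both genotype labels. Slc6a11 also rose through these days in the libraries labelled Kmt2d+/βgeo, whereas in wild type it fell from day 2 to day 4. In wild type Slc1a2 and Slc1a3, both on the list, fell between these days too, so the sum does not stand for each gene on it. From day 4 to day 8 the astrocyte sum was nearly level in wild type and fell in the libraries labelled Kmt2d+/βgeo. Slc1a2 and Slc1a3 were lower on day 8 than on day 4 under both labels. Over the same days Slc16a1, Slc7a2 and Slc39a12 went up and Slc6a11 went down under both labels. As the 2 day 4 libraries were almost the same, steps to or from day 4 cannot be read as agreement of 2 genotypes. The part of the astrocyte markers and of Olig2 in the changes of the carriers was not tested.

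Mitochondrial carriers gave 1 rise and 1 fall in both genotypes on day 8 of 18 compared, where 13.2% of all genes rose and 8.02% fell in both. Slc25a4 (ENSMUSG00000031633, chromosome 8, 46206797 to 46211284), the ADP and ATP exchanger, had the highest level of all members and averaged 13.5, 16.9, 14.3 and 13.4 in wild type and 13.6, 16.3, 14.2 and 9.62 in Kmt2d+/βgeo. Both day 2 libraries were the highest, and the Kmt2d+/βgeo day 8 library was the lowest, with a log2 ratio to day 0 of -0.50 (-0.53 to -0.47). Slc25a25 (chromosome 2, 32414487 to 32451445), an exchanger of ATP-magnesium for phosphate, averaged 0.606, 0.174, 0.159 and 0.175 in wild type and 0.624, 0.202, 0.169 and 0.180 in Kmt2d+/βgeo. The 2 day 0 libraries were thus high and the 6 later ones low and close together, with a day 8 log2 ratio of -1.79 in both genotypes (-1.94 to -1.66 and -1.99 to -1.60). Slc25a33, a carrier of pyrimidine nucleotides, averaged 0.140, 0.250, 0.416 and 0.622 in wild type and 0.178, 0.142, 0.454 and 0.583 in Kmt2d+/βgeo. The coenzyme A carrier Slc25a42 rose on day 2, to 0.122 from 0.0185 in wild type and to 0.113 from 0.0125 in Kmt2d+/βgeo, and was below 0.1 in all other libraries. The glutamate carrier Slc25a18 had day 2 log2 ratios of 1.16 and 1.06.

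Carriers of fatty acids, nucleosides and nucleotide sugars gave 2 rises and 1 fall in both genotypes on day 8 of 14 compared, near the 13.2% and 8.02% of all genes. Slc35b2 (chromosome 17, 45563874 to 45567671), which brings the sulfate donor PAPS into the Golgi, averaged 1.51, 0.736, 0.574 and 0.415 in wild type and 1.27, 0.682, 0.582 and 0.523 in Kmt2d+/βgeo, lower on each later day than on the one before. Slc35d1, a nucleotide sugar transporter, went the other way, with 0.147, 0.245, 0.341 and 0.502 in wild type and 0.119, 0.265, 0.372 and 0.574 in Kmt2d+/βgeo. Slc35f3 (chromosome 8, 126138995 to 126395978) peaked on day 2, at 0.0750, 0.339, 0.118 and 0.0623 in wild type and 0.0566, 0.259, 0.136 and 0.0647 in Kmt2d+/βgeo. The acetyl coenzyme A transporter Slc33a1 had day 8 log2 ratios of 1.07 and 1.39. The fatty acid transport protein Slc27a1 averaged 1.301, 2.50, 1.75 and 1.55 in wild type and 0.933, 2.01, 1.78 and 0.852 in Kmt2d+/βgeo, highest on day 2 in both.

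Organic ion and peptide carriers gave 2 rises and 0 falls of 5 compared in both genotypes on day 8 (13.2% and 8.02% of all genes). The orphan carrier Slc22a23 averaged 0.207, 0.501, 0.711 and 0.678 in wild type and 0.171, 0.416, 0.766 and 0.560 in Kmt2d+/βgeo, a day 8 log2 ratio of 1.71 in both. The carnitine transporter Slc22a5 averaged 0.0335 and 0.108 on days 0 and 8 in wild type and 0.0301 and 0.110 in Kmt2d+/βgeo. Its neighbour and close paralog Slc22a21 stayed below 0.1 throughout, and reads could be split between the pair.

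**Figure D3:**
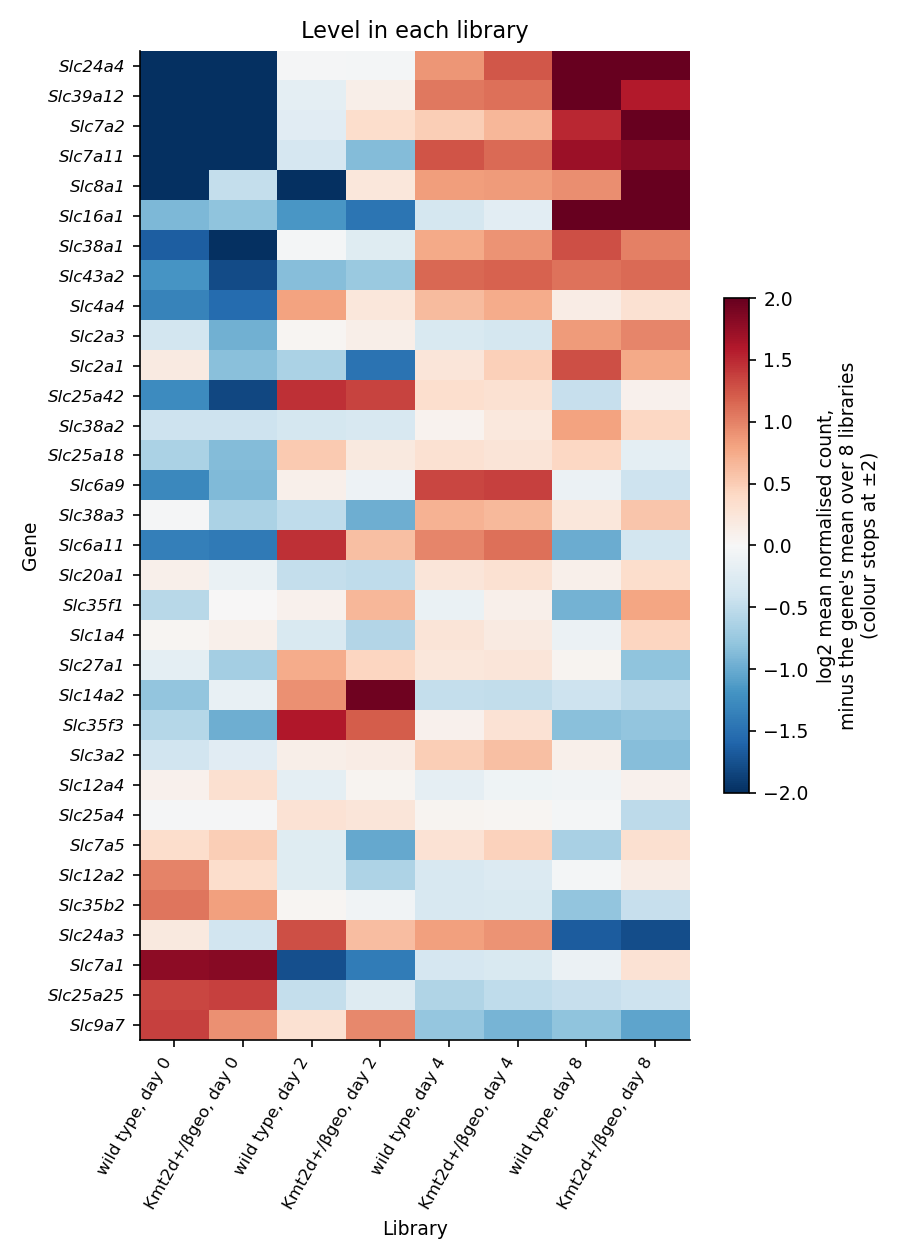
Colour gives the log2 mean normalised count of each of 33 genes named by rule in each of the 8 libraries, minus the mean of that gene over the libraries, with genes ordered by their day 8 minus day 0 difference. The day 4 columns look alike, Slc24a4, Slc39a12, Slc7a2 and Slc7a11 lead the rises from day 0 to day 8, and Slc9a7, Slc25a25 and Slc7a1 end the list.

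Other transport genes were compared in the same way. Of 23 ABC transporters in the matrix, 16 were compared on day 8, of which 6 had risen and 1 had fallen in wild type, and 7 had risen and 3 had fallen in Kmt2d+/βgeo. The shares of all genes were 16.3% higher and 10.9% lower in wild type, and 19% and 13.9% in Kmt2d+/βgeo. Of 12 genes listed for the sodium pump and its regulators 3 were in the matrix, and 2 rose in wild type and 0 in Kmt2d+/βgeo.

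Between the genotypes few solute carriers were past the fold, and these small counts lie near the shares of all genes given beside them. On day 0, 0 of 91 compared members were past the fold on the higher side in Kmt2d+/βgeo and 1 on the lower side, against 0.674% and 0.871% of all genes, 1.55% together. On day 2 the counts were 1 and 0 of 95 (1.68% and 1.15%, 2.84% together), on day 4 they were 0 and 0 of 101 (0% of all genes in either direction), and on day 8 they were 2 and 1 of 105 (2.06% and 2.81%, 4.87% together). The median log2 ratio, Kmt2d+/βgeo over wild type, was -0.13, -0.10, 0.07 and 0.05 on days 0, 2, 4 and 8, beside -0.04, -0.0020, 0.04 and 0.01 for all genes. Of 78 members compared on days 0, 2 and 8, 0 were past the fold with 1 sign on all 3 days, against 0.256% of all genes higher and 0.181% lower.

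Among members that reached the minimum level, those past the fold were different genes on days 0, 2 and 8. Slc2a1 on day 0 averaged 0.0793 in Kmt2d+/βgeo and 0.160 in wild type, a log2 ratio of -1.02 (-1.18 to -0.86), which lay at the fold and was -0.99 when computed from summed UMIs. Slc14a2, a urea transporter, on day 2 averaged 0.242 and 0.117, a log2 ratio of 1.04 (0.88 to 1.21). On day 8 Slc35f1 averaged 0.239 and 0.0719, a log2 ratio of 1.73 (1.47 to 1.99), and on days 0 and 2 its ratios were 0.56 (0.41 to 0.71) and 0.58 (0.43 to 0.73). Slc8a1, the sodium and calcium exchanger NCX1, averaged 0.0396, 0.0645, 0.0991 and 0.336 in Kmt2d+/βgeo and 0.00705, 0.0135, 0.0986 and 0.105 in wild type. It was higher in Kmt2d+/βgeo on days 0, 2 and 8 and level on day 4, but reached 0.1 on day 8 only, with a log2 ratio of 1.68 (1.47 to 1.90). The minimum level thus kept Slc8a1 out of the counts of days 0 and 2 and out of the count with 1 sign on all 3 days. It nevertheless rose from day 0 to day 8 in both genotypes, by a log2 ratio of 3.89 in wild type and 3.09 in Kmt2d+/βgeo.

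The X chromosome holds 6 members, and the Y-linked Kdm5d averaged between 0.202 and 0.317 in every library, so reads of a Y chromosome were present in each. Every genotype comparison on day 8 involves the shallowest library, whose part in the ratios was not tested beyond thinning, under which the log2 ratios of Slc35f1 and Slc8a1 were 1.72 and 1.91.

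**Figure D4:**
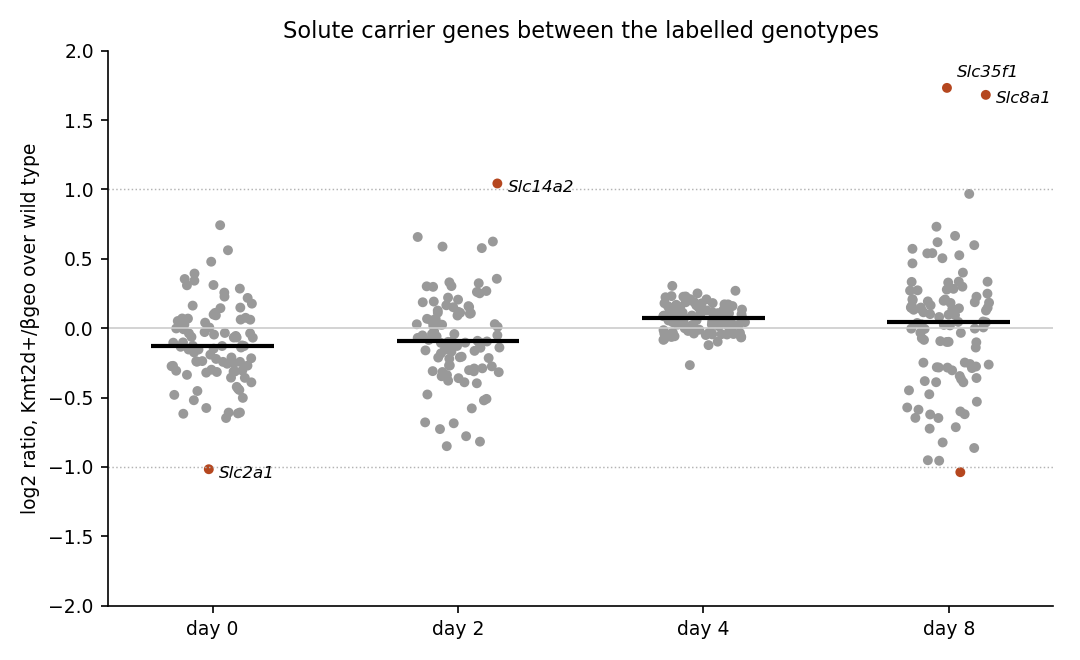
Each point is 1 solute carrier gene, with the log2 ratio of its level in Kmt2d+/βgeo to that in wild type on the vertical axis and the day on the horizontal axis. Points are spread sideways for legibility. Black bars are medians, dotted lines mark the fold, and points past it are brown, with Slc2a1, Slc14a2, Slc35f1 and Slc8a1 labelled, with the spread smallest on day 4.

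Since the study concerned the position of cells in the cell cycle, day 0 cells were also divided by whether they held a UMI of Top2a, a topoisomerase that is highest in G2 and mitosis, after thinning. In Kmt2d+/βgeo 1599 cells had one and 2706 had none, and in wild type 1668 and 3189. No member was past the fold in either library, of 92 and 89 compared. Members below 0.1 in both groups of cells were not compared, so this count does not cover them. Slc8a1, 1 of these, averaged 0.0578 with and 0.0269 without a Top2a UMI in Kmt2d+/βgeo and 0.0124 and 0.00425 in wild type. Of all genes, 2.28% and 2.25% were higher and 0.0991% and 0.0703% lower, so a count of 0 is near these shares. All genes include Top2a itself, on which the cells were divided. The members' median log2 ratio, with over without Top2a, was -0.11 in Kmt2d+/βgeo and -0.10 in wild type, beside -0.03 and -0.02 for all genes. Slc7a1 averaged 0.324 with and 0.200 without a Top2a UMI in Kmt2d+/βgeo and 0.335 and 0.193 in wild type, log2 ratios of 0.70 and 0.80. Slc43a2 lay on the other side, at 0.0626 and 0.114 in Kmt2d+/βgeo and 0.0990 and 0.174 in wild type, log2 ratios of -0.87 and -0.81. Cells with a Top2a UMI were deeper, with median UMIs before thinning of 14115 against 10268 in Kmt2d+/βgeo and 12479 against 8685 in wild type, and the part of depth in these ratios was not tested.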

How the data were processed

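The labels and methods state that the authors counted molecules with alevin (Salmon 1.3.0) on a GRCm38 index, used spliced counts, removed low-quality cells and doublets before deposit, aligned samples with Seurat 3.2.2 for their own embedding, and divided each cell by its library size. The deposited matrix holds the authors' log2 values of 9140 genes in 30408 cells, and the deposited cell table the authors' estimated counts of total UMIs per cell. Here values were turned back to normalised counts (the log2 scale and the added 1 undone) and averaged per library. Dividing by the commonest nonzero value of a cell gave estimated UMIs, 86.8% of them within 0.01 of a whole number, which were rounded and summed for exact conditional 95% intervals, scaled to the ratio of means. For shares of cells with a UMI, each cell was thinned to 3000 UMIs, which left out 764 cells of the Kmt2d+/βgeo day 8 library and 0 to 26 of the others. Intervals cover counting error only.

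Compared genes had a mean of at least 0.1 in either library and were counted at an absolute log2 ratio of at least 1. With 1 library per group no test was run. The computation was tested on simulated data. Members and lists were chosen with earlier results of these data known. The naming rule took the 25 of 40 genes listed by role that are in the matrix, the 5 members of highest level, up to 8 (day 8) or 5 (days 2 and 4) per direction past the fold in both genotypes ranked by the smaller ratio, up to 4 per direction and day between genotypes, up to 5 per direction by Top2a, and members past the fold in opposite directions on day 8. The last 2 parts named 0 genes. Other genes that rose in both genotypes on day 8, their relatives and all non-members were named after their values were seen. Slc7a10, Slc1a5, Slc6a6, Slc16a3, Slc12a5, Slc17a6, Slc17a7, Slc32a1, Slc18a2, Slc25a3, Slc25a5, Slc29a1, Slc30a10, Slc39a1 and Slc40a1 were listed by role and not analysed here. Families follow the number after Slc. Values of some genes that the rule names are not reported here. Alternatives changed the scale, the depth, the centring and the minimum level. Python 3.11.15, numpy 2.4.6, scipy 1.17.1, pandas 2.3.3 and matplotlib 3.10.9 were used.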

Additional observations from a re-analysis of the deposited data

Results flagged for a closer look

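Some members had counting intervals on opposite sides of 0 in the 2 genotypes, or in the genotype ratio of 2 days, with log2 ratios at least 1 apart. With 1 library per genotype and day none of these differences was tested.

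From day 0 to day 8, the log2 ratio was 0.49 in wild type and -1.08 in Kmt2d+/βgeo for the peptide transporter Slc15a2, 0.48 and -0.62 for Slc3a2, 1.01 and -0.23 for the UDP-galactose transporter Slc35a2, and 0.44 and -0.56 for the mitochondrial carrier Slc25a14. Slc15a2 averaged 0.168 and 0.236 on days 0 and 8 in wild type and 0.281 and 0.133 in Kmt2d+/βgeo. For each of these 4 genes the lower day 8 level was in the shallowest library. From day 0 to day 2, Slc25a33 had ratios of 0.83 in wild type and -0.33 in Kmt2d+/βgeo.

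The same values read as genotype ratios, Kmt2d+/βgeo over wild type, were 0.74 on day 0, 0.30 on day 2 and -0.82 on day 8 for Slc15a2. They were 0.15 on day 0 and -0.96 on day 8 for Slc3a2. For Slc35a2 they were 0.29, 0.15 and -0.95 on days 0, 2 and 8, for Slc25a14 0.35 and -0.65 on days 0 and 8, and for Slc25a33 0.34 and -0.82 on days 0 and 2. Slc9a7 had genotype ratios of -0.45 on day 0 and 0.66 on day 2. Slc6a11 had ratios of -0.85 on day 2 and 0.62 on day 8, and Slc7a5 of -0.78 and 0.97 on the same days.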

How the results depend on the processing

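Taking differences of mean log2 values per cell, a scale that compresses genes with many zero cells, left 3, 3 and 3 members past the fold in wild type on days 2, 4 and 8 (25, 28 and 39 before), 1, 3 and 2 in Kmt2d+/βgeo (27, 37 and 45 before) and 0, 0 and 0 between genotypes on days 0, 2 and 8 (1, 1 and 3 before). A minimum mean of 0.5 left 14, 14 and 21 in wild type, 8, 15 and 17 in Kmt2d+/βgeo, and 0, 0 and 1 between genotypes on days 0, 2 and 8, by its construction from fewer genes. With no minimum the genotype counts were 2 on day 0 and 3 on day 2. Summed UMIs and median-centred ratios each gave 0 between genotypes on day 0. Counts after thinning to 3000 UMIs stayed within 1.5 times of those given. Of 102 ratios of named members past the fold, 102 kept their direction under mean log2 values and 15 stayed past the fold, against 101 of 102 with summed UMIs and 98 of 100 after thinning. The members' median log2 ratio between genotypes on day 8, 0.05, was -0.04 under mean log2 values. That of all genes, 0.01, was -0.05 there, -0.04 after thinning and -0.02 with summed UMIs. The all-gene medians of day 8 against day 0, 0.04 in wild type and 0.11 in Kmt2d+/βgeo, were -0.01 and -0.05 under mean log2 values, and -0.04 in wild type with a minimum of 0.5. The sample number in the labels is 2 for Kmt2d+/βgeo and 4 for wild type on every day, so it goes with the genotype and pairs no libraries between genotypes, and a fit of genotype with day as a block over the 4 days was not run. With 1 library for each genotype and day, no replicate could be left out. Depth limits the members under 0.1, which include all 18 that were never compared.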
